A study of Mus musculus with 4 samples.

Results

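The genes described here are 10 innate immune sensors, adaptors and one transcription factor that act upstream of interferon in mouse cells: Tlr2, Tlr3, Tlr4, Myd88, Ddx58, Ifih1, Dhx58, Mavs, Tmem173 and Irf3. They were chosen by gene symbol, with earlier results of these data known. All 10 listed symbols were found among the 23337 symbols counted in each library. Ddx58 is the older symbol of RIG-I, Ifih1 encodes MDA5, Dhx58 encodes LGP2 and Tmem173 encodes STING. RNA was sequenced from lymphatic endothelial cells of embryonic day 14.5 mice, sorted as CD45-negative cells with LYVE1 and VECAD on their surface. One pool of litter mates was wild type and the other was homozygous for a deletion. Each sort was divided, with one portion lysed at once and the other kept for 7 days on OP9 feeder cells with FLT3L, IL3 and SCF and then sorted again for LYVE1 and VECAD. OP9 is a mouse bone marrow stromal line used to support blood cell growth. Each of the 4 groups (wild type before culture, mutant before culture, wild type after culture and mutant after culture) is 1 library, so no group has a replicate. The second sort is not stated to have excluded CD45. Each genotype was an entire litter pooled, and the labels state neither the number of embryos nor the deleted sequence, while the series title speaks of an enhancer bound by GATA2.

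Cells recognise microbes through receptors for molecules that microbes make. Toll-like receptors sit in the plasma membrane or in endosomes: TLR4 binds bacterial endotoxin, TLR2 binds bacterial lipoproteins and TLR3 binds double-stranded RNA. The RIG-I-like receptors RIG-I, MDA5 and LGP2 bind viral RNA in the cytosol, and STING answers to a cyclic dinucleotide made when DNA is found there. Their signals pass through adaptors, MyD88 for most Toll-like receptors and MAVS for the RIG-I-like receptors, to kinases that activate NF-kB and the interferon regulatory factor IRF3. Interferon then raises the transcription of many genes, and the RIG-I-like receptors themselves are known interferon-induced genes. In endothelium TLR4 is known for the response of vessels to endotoxin.

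Gene counts totalled 1694669 to 7943587 read pairs per library. Both surface markers of the sort were read in all 4 libraries. Cdh5, which encodes VECAD, stood at 1003 and 1066 CPM (counts over library size, scaled by the trimmed mean of M values, TMM) in wild type and mutant cells before culture and at 2477 and 2285 CPM after it, and Lyve1 at 1072, 890, 3523 and 2742 CPM. Prox1, the lymphatic identity factor, stood at 507, 487, 207 and 137 CPM in wild type before, mutant before, wild type after and mutant after culture, and this order is kept in every list of 4 values below. Of 8 lymphatic markers Ccl21a had no counts in any library. Pdpn had 87.3, 99.3, 0 and 2.39 CPM. Reln had 1091, 1012, 20.4 and 21.5 CPM, Mmrn1 2030, 1761, 320 and 237 CPM and Nrp2 1710, 1735, 904 and 912 CPM. Prox1, Pdpn, Reln, Mmrn1 and Nrp2 were thus lower after culture in both genotypes. Flt4 went the other way, as did Lyve1, with 1092, 1194, 2543 and 2273 CPM for Flt4. Before culture the libraries also carried counts in 1410 olfactory and vomeronasal receptor genes, which such cells are not known to transcribe. This background came to 6.63 and 8.34 counts per kb of coding sequence before culture and to 0.534 and 1.62 counts per kb after it. Pairs outside annotated genes made up 66.5%, 53.6%, 19.996% and 30.3% of all pairs. The background rate is given beside the low counts below, and its part in the folds is read from the values with background subtracted. Intervals of these values take the rate as fixed, without its spread between receptor genes. In bulk RNA, fewer cells of a type and less RNA per cell cannot be told apart.

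Before culture, STING was the most abundant of the 10 transcripts per length and TLR4 the least. Per kb of exon, Tmem173 stood at 15.7 CPM in wild type and 18.9 CPM in mutant cells, above Myd88 at 7.87 and 8.81 CPM, with no overlap of the counting intervals. Tlr4 stood at 1.3 and 0.781 CPM per kb. Its 36 and 40 counts equalled 0.977 and 0.863 times the counts that the background rate puts on its 5.56 kb of exon, or 1.33 and 1.18 times those on its longest transcript of 4.08 kb. Its counts before culture were thus near those of the background, and a transcript above background was not clearly detectable at this depth. Ifih1 lay 1.46 and 1.45 times above the background expected over all its exons. The other members lay 2.2 to 20.9 times above it before culture. The rate pools all receptor genes, whose 95th percentile was 19.6 and 25.5 counts per kb before culture. Over all exons, Tlr4 and Ifih1 lay below that percentile in both genotypes. So did Tlr2, Ddx58 and Dhx58 in wild type cells, at 14.6, 16.45 and 17.4 counts per kb, and Dhx58 in mutant cells at 23.8. These values were thus within the spread of the receptor genes. After culture every member lay 14.4 to 112 times above the background.

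The order of the members was different after culture. Ddx58 and Tmem173 led in wild type cells at 43.5 CPM per kb each, and in mutant cells at 37.2 and 39.2 CPM per kb, with overlapping intervals. Per kb of the longest transcript Ddx58 stood above Tmem173, at 79.2 against 51.9 CPM in wild type and 67.7 against 46.7 CPM in mutant cells, so their order depends on the length used. In wild type cells Dhx58 and Myd88 followed at 25.4 and 23.4 CPM per kb, again with overlapping intervals, and then Ifih1 at 17.6 CPM per kb. In mutant cells Myd88, Dhx58 and Ifih1 followed at 21.7, 17.6 and 13.9 CPM per kb, each overlapping its neighbour in the order. Tlr3, Irf3, Mavs, Tlr4 and Tlr2 made up the lower end in both genotypes, at 6.28 to 12.2 CPM per kb, and each interval overlapped the next. Before culture Ddx58 stood at 3.30 and 3.22 CPM per kb of exon, with intervals that overlapped those of neighbours in the order, and at 6.01 and 5.86 CPM per kb of the longest transcript.

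**Figure D1:**
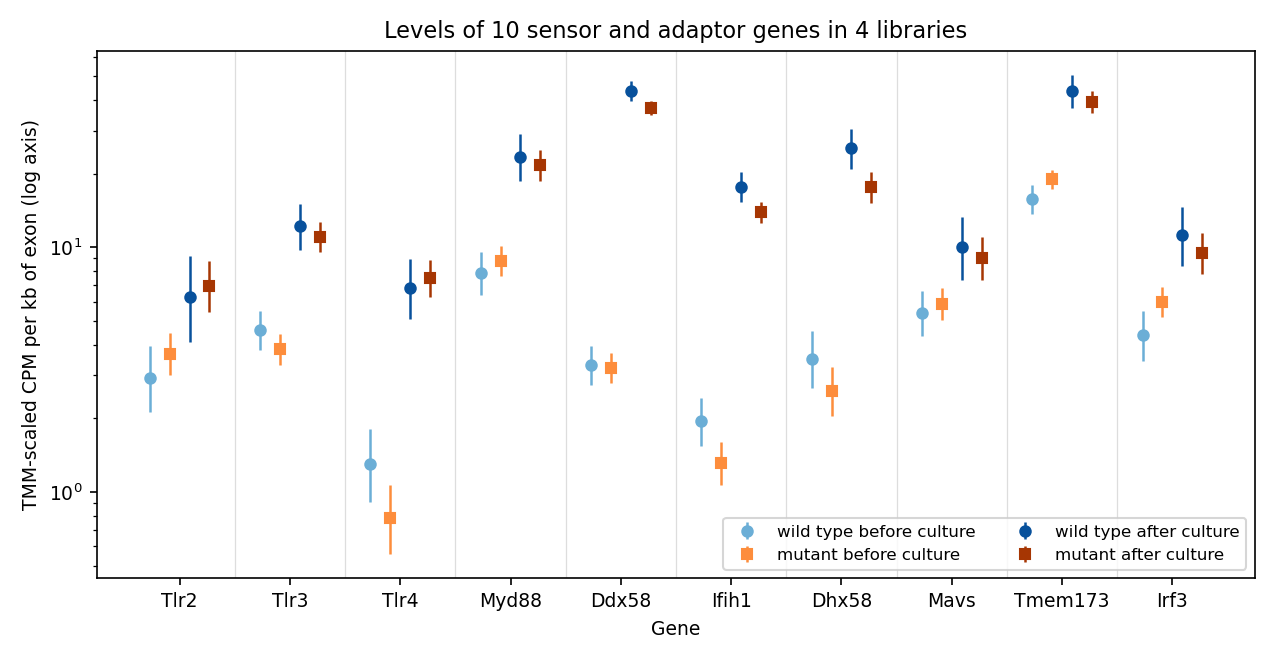
Level of each gene as TMM-scaled CPM per kb of exon on a log axis, with exact Poisson 95% intervals, in the 4 libraries. The libraries after culture (dark) lie above those before culture (light) for all 10 genes, with the widest gaps for Ddx58, Ifih1, Dhx58 and Tlr4.

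**Figure D2:**
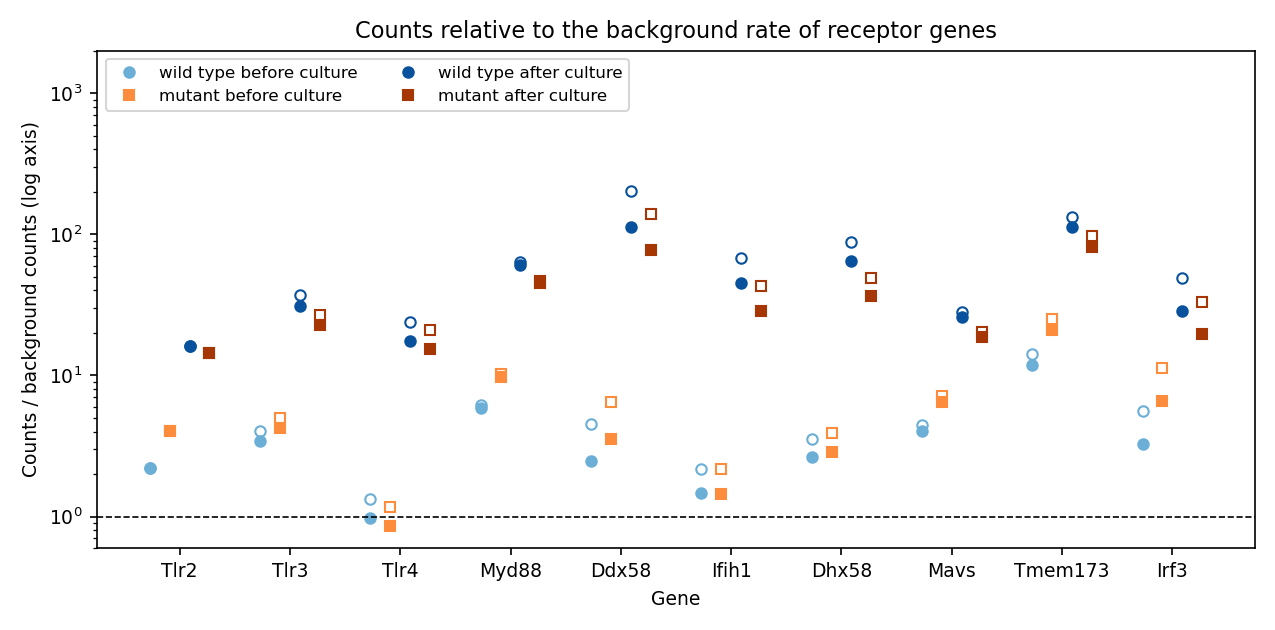
Counts of each gene divided by the counts that the background rate of receptor genes predicts, on a log axis, taken over all exons (filled) or the longest transcript (open). The dashed line marks 1, and Tlr4 before culture lies next to it, at 0.977 and 0.863 times over all exons.

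The comparison of cells after culture with those before it asks what the OP9 culture, set up to test blood-forming potential, did to these genes. With TMM scaling all 10 members were higher after culture in both genotypes, with the largest folds in Ddx58, Ifih1, Dhx58 and Tlr4. A fold is the ratio of TMM-scaled CPM and carries the 95% Clopper-Pearson interval for the portion of both counts that one library held, which covers counting error only. A gene was called where the whole interval lay beyond 2-fold, with at least 20 counts in 1 of the 2 libraries. In wild type cells 6 members were called higher and none lower, against 8.17% of 17154 genes called higher and 4.34% called lower. In mutant cells 6 members were called higher and none lower, against 5.19% of 18807 genes called higher and 3.46% lower. The intervals of all 10 members lay above 1 in each genotype, as did those of 33.9% of genes in wild type and 32.4% in mutant cells. The median log2 fold of the members was 1.51 in wild type and 1.40 in mutant cells, beside -0.05 and -0.09 over all genes tested.

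These counts depend on the scaling. Scaling by total counts moves every log2 culture fold by -0.62 in wild type cells and -0.45 in mutant cells, and the scaling after background subtraction by -0.49 and -0.26. Total counts turn 1401 higher and 745 lower genes into 516 and 2477 in wild type cells, and 976 and 651 into 493 and 1812 in mutant cells. With total counts 4 members, Tlr4, Ddx58, Ifih1 and Dhx58, were called higher in each genotype, and 8 of 10 intervals lay above 1 in each. Those of Tlr2 and Mavs in wild type and of Mavs and Irf3 in mutant cells held 1. The share of all genes with an interval above 1 was not computed under total counts, so the 8 of 10 has no background beside it.

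RIG-I-like receptors. Ddx58, the sensor of viral RNA with a triphosphate end, had 23.3 (19.2 to 27.9), 22.7 (19.7 to 26.0), 307 (278 to 338) and 262 (245 to 280) CPM. The levels of the genotypes overlapped before culture, and both cultured libraries lay far above them. The fold was 13.2 (10.7 to 16.3) in wild type cells and 11.6 (9.93 to 13.5) in mutant cells, which placed Ddx58 60th of 17154 and 63rd of 18807 genes by log2 fold. Ifih1, the sensor of long double-stranded RNA, had 15.8 (12.6 to 19.8), 10.8 (8.73 to 13.1), 144 (125 to 166) and 113 (102 to 125) CPM. The mutant value was below the wild type value at both times with intervals that just overlapped, and both cultured libraries were again clear of the earlier ones. Its fold was 9.09 (6.97 to 11.9) in wild type and 10.55 (8.43 to 13.3) in mutant cells, or 20.1 (9.82 to 41.1) and 27.3 (14.4 to 51.7) with background subtracted. Dhx58, whose product lacks the signalling domains of the other receptors and modulates them, had 11.4 (8.66 to 14.8), 8.47 (6.69 to 10.6), 82.9 (68.4 to 99.6) and 57.4 (49.6 to 66.1) CPM. Its fold was 7.25 (5.23 to 10.1) in wild type and 6.78 (5.19 to 8.94) in mutant cells. All 3 receptors were called higher in both genotypes, also with background subtracted and with total counts only.

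Promoter letters are given as a description of members whose rise was already known, and the shares below test nothing. Tmem173 was left out of the window search, and no window was available for Tlr4 and Dhx58. RefSeq windows on GRCm38.p6, from 250 bases before to 50 after the start, were read for the other 7 members: Tlr2, Tlr3, Myd88, Ddx58, Ifih1, Mavs and Irf3. The core of the interferon-stimulated response element, GAAANNGAAA on either strand, was found in 3 of these 7, beside 3.44% of 32851 windows of the same length. The 3 were Ifih1, Ddx58 and Myd88. The shorter core of interferon regulatory factor sites, AANNGAAA, lies within every match of the longer motif and was found in 5 of the 7 windows, beside 23.9% of all windows. The additional members were Tlr2 and Tlr3. The kappa-B motif GGGANNNTCC was found in Tlr3 alone of the 7, beside 4.59% of all windows. A match describes letters in the window and does not show binding.

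The matches in the 3 windows with the longer motif are shown in capitals within 30 bases, read along the strand of the gene. All 3 genes lie on the minus strand, and positions count from the RefSeq start. For Myd88 that start lies inside the GENCODE vM21 span of the gene given below. The Ifih1 match begins 33 bases into the transcript, the Ddx58 match begins at base 3 of the transcript on the opposite strand, and the Myd88 match begins 40 bases before the start. The regions are chr2:62646206-62646235, chr4:40239804-40239833 and chr9:119340039-119340068.
Ifih1: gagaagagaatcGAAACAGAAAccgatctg
Ddx58: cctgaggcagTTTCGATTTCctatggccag
Myd88: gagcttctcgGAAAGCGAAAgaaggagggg

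The 250 bases before the start of Ddx58, at chr4:40239826-40240075, hold a further match to AANNGAAA on the strand of the gene, 59 bases before the start, in capitals.
Ddx58: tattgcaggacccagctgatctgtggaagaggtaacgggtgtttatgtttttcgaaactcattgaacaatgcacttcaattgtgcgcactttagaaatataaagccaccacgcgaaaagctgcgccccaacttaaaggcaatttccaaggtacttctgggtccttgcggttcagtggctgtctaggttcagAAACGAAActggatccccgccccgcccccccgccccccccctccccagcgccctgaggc

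Toll-like receptors. Tlr4, which signals endotoxin together with MD-2 and CD14, had 36, 40, 52 and 139 counts, or 7.22 (5.06 to 10.0), 4.34 (3.1 to 5.91), 37.8 (28.2 to 49.6) and 41.6 (34.9 to 49.1) CPM. Both libraries before culture lay near the background and both cultured ones far above it. Its fold was 5.24 (3.36 to 8.24) in wild type and 9.57 (6.69 to 14.0) in mutant cells. No fold could be formed with background subtracted over all exons, since no counts were left before culture. Over the longest transcript it was 14.3 (3.74 to 55.0) and 50.9 (6.41 to 403), so its size is poorly bounded while its direction held.

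Tlr3, the endosomal sensor of double-stranded RNA, had 23.9 (19.8 to 28.6), 19.97 (17.2 to 23.1), 63.3 (50.7 to 78.1) and 57.4 (49.6 to 66.1) CPM. Both cultured libraries were above both earlier ones, and the genotypes overlapped at each time. Its fold was 2.65 (1.99 to 3.52) in wild type and 2.88 (2.34 to 3.54) in mutant cells, and it was called in mutant cells. Tlr2, the lipoprotein receptor, had 8.83 (6.42 to 11.8), 11.1 (9.03 to 13.4), 18.9 (12.4 to 27.7) and 20.9 (16.3 to 26.4) CPM. It rested on 26 to 102 counts per library, with a fold of 2.14 (1.27 to 3.56) in wild type and 1.89 (1.37 to 2.59) in mutant cells, and was not called in either.

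Adaptors and IRF3. Myd88, the adaptor of most Toll-like receptors and of the IL-1 receptor, had 20.3 (16.5 to 24.6), 22.7 (19.7 to 26.0), 60.4 (48.1 to 74.8) and 55.9 (48.2 to 64.5) CPM. It was called higher in both genotypes, with a fold of 2.98 (2.20 to 4.02) in wild type and 2.46 (2.01 to 3.02) in mutant cells. With background subtracted the folds were 2.51 and 2.25 and their intervals reached below 2, so neither was called. Tmem173, the STING adaptor of cytosolic DNA sensing, had 43.1 (37.6 to 49.3), 51.9 (47.3 to 56.8), 119 (102 to 139) and 107 (96.5 to 119) CPM. Its fold was 2.77 (2.24 to 3.40) in wild type cells, where it was called, and 2.07 (1.80 to 2.38) in mutant cells, where it was not. With background subtracted these folds were 2.13 and 1.80 and neither was called.

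Mavs, the mitochondrial adaptor that RIG-I and MDA5 share, had 18.1 (14.5 to 22.2), 19.6 (16.9 to 22.7), 33.5 (24.5 to 44.6) and 30.2 (24.6 to 36.7) CPM. Its folds of 1.85 (1.27 to 2.67) and 1.54 (1.19 to 1.97) were the lowest of the members in both genotypes. With total counts they were 1.203 (0.824 to 1.73) and 1.13 (0.875 to 1.45), and both intervals held 1. Irf3, the transcription factor that TBK1 activates, had 15.1 (11.8 to 18.9), 20.6 (17.8 to 23.8), 38.6 (28.9 to 50.4) and 32.6 (26.8 to 39.3) CPM, with folds of 2.56 (1.77 to 3.69) in wild type and 1.58 (1.24 to 2.01) in mutant cells. With total counts the fold of Irf3 was 1.66 (1.15 to 2.39) in wild type and 1.16 (0.907 to 1.47) in mutant cells, where the interval held 1. The log2 fold of Ddx58 stood at 3.72 and 3.53 in wild type and mutant cells, that of its adaptor Mavs at 0.89 and 0.62, and that of Irf3 at 1.36 and 0.66.

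**Figure D3:**
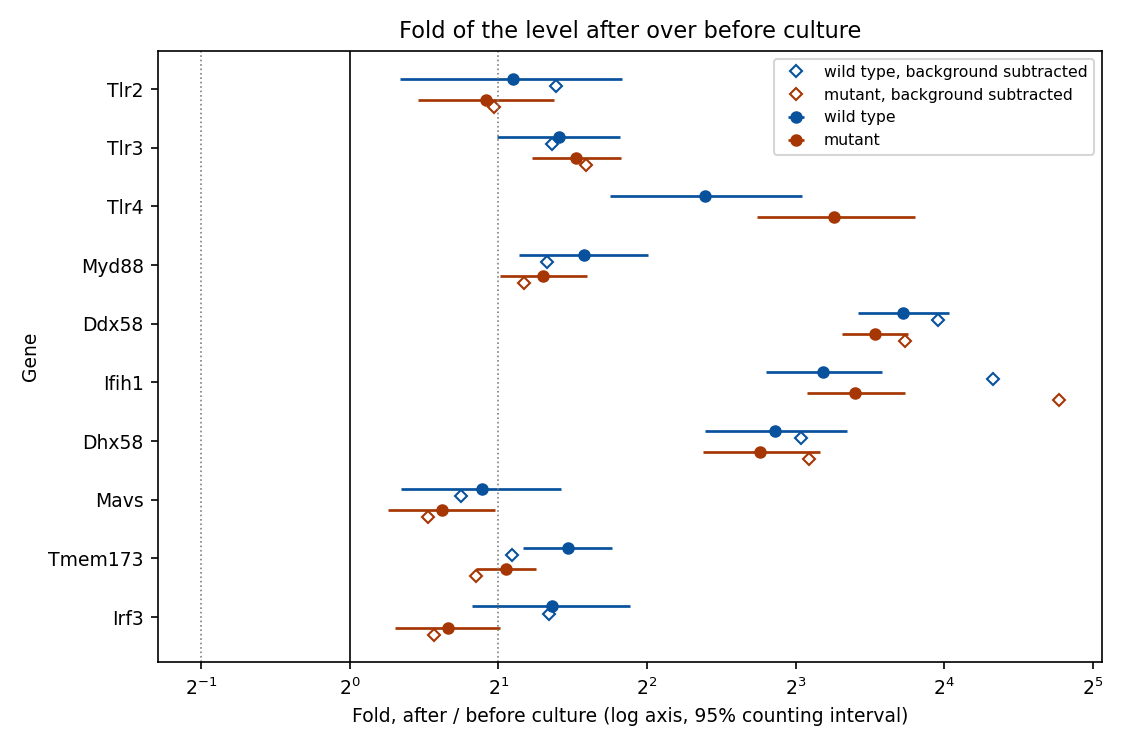
Fold of each member after over before culture in wild type and mutant cells, on a log axis with 95% counting intervals, and as open diamonds with background subtracted (Tlr4 has none). Solid and dotted lines mark 1 and 2-fold. Ddx58, Ifih1, Dhx58 and Tlr4 lie furthest beyond 2-fold in both genotypes, at 5.24 to 13.2. The whole intervals of Myd88 also lie beyond 2-fold in both, at 2.98 and 2.46.

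Culture was also tested over all 4 libraries with genotype as a term, using the edgeR quasi-likelihood test with Benjamini-Hochberg adjustment over 18531 genes. All 10 members passed an adjusted p of 0.05 and were higher, where 23.5% of genes passed as higher and 18.6% as lower. The adjusted p was 9.14e-74 for Ddx58, 1.29e-50 for Ifih1, 1.48e-28 for Dhx58 and 4.18e-17 for Tlr4. The adjusted p was 0.00226 for Irf3, 0.0232 for Tlr2 and 0.0273 for Mavs, and DESeq2 with the same terms gave 0.0723, 0.159 and 0.185 for these 3. The fit has 1 residual degree of freedom, pooled the spread fully across genes and takes that spread from how far the culture response differed between the genotypes, so its p-values do not measure the variation between replicate cultures.

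Markers of other cell types were measured beside these folds, and their part in them was not tested. Of 11 macrophage and monocyte markers found, 1 in wild type and 4 in mutant cells had at least 20 counts after culture. Their summed level was 351 and 357 CPM before culture and 276 and 356 CPM after it, of which Mrc1, which some endothelium also expresses, held 275, 281, 234 and 306 CPM. C1qa had no counts in cultured wild type cells, and Csf1r had 24.3, 21.3, 5.09 and 11.7 CPM. The 9 leukocyte markers summed to 147, 153, 253 and 275 CPM. Of these Lcp1, an actin-bundling protein gene, held 62.8, 68.2, 196 and 182 CPM and Hcls1 held 16.3, 15.2, 29.8 and 58.9 CPM. Ptprc, which encodes CD45, had 18.3, 12.8, 4.37 and 7.78 CPM on 91, 118, 6 and 26 counts, below its background of 121.5, 152.7, 9.79 and 29.6 counts in every library. Coro1a and Cd52 had no counts in cultured wild type cells. The 6 dendritic cell markers summed to 66.4, 56.7, 160 and 191 CPM, with Zbtb46 at 100 and 115 CPM and Clec9a at 42.9 and 56.2 CPM after culture. Flt3, Itgax, Siglech and Xcr1 went the other way and were lower after culture in both genotypes. Flt3 had 8.63, 9.117, 6.548 and 6.579 CPM and Itgax 15.85, 14.44, 5.093 and 10.47 CPM. Siglech had 3.612, 2.822, 2.183 and 0.8971 CPM and Xcr1 10.44, 5.101, 2.91 and 1.196 CPM.

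Sums of stromal, adipocyte and endothelial markers also differed between the times. The 10 stromal markers summed to 3469, 5520, 1687 and 1436 CPM, and Lum had no counts in cultured wild type cells. Fbln2 went the other way, with 110 and 179 CPM before and 504 and 445 CPM after culture, and Pdgfrb had 40.7, 49.6, 46.6 and 51.4 CPM. The 7 adipocyte markers summed to 89.7, 76.8, 885 and 610 CPM. Most of the sums after culture lay in Fabp4, with 37.7, 30.1, 394 and 335 CPM, and Lpl, with 26.5, 22.0, 309 and 190 CPM. Adipoq had 5.42, 5.32, 54.6 and 12.9 CPM, Plin1 3.81, 3.365, 39.3 and 14.95 CPM and Plin4 5.02, 5.43, 39.3 and 52.0 CPM. Car3 had 7.425, 7.60, 43.65 and 3.29 CPM and Cidec 3.81, 3.04, 4.365 and 1.79 CPM, both lower after culture in mutant cells. The 10 endothelial markers summed to 4153, 4449, 12830 and 11680 CPM. The 5 neutrophil markers summed to 27.7, 19.8, 18.2 and 12.9 CPM, and the 6 mast cell markers to 36.9, 51.7, 114 and 9.87 CPM. In cultured wild type cells Cpa3 stood at 49.5, Cma1 at 29.1, Mcpt4 at 21.8 and Tpsb2 at 13.1 CPM, each above background, and Ms4a2 had no counts.

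Setting mutant beside wild type libraries asks whether the deletion alters these genes at either time. No member was called before culture, where 0.0158% of 18934 genes were called higher and 0.0475% lower. No member was called after culture either, where 0.065% of 12309 genes were called higher and 0.0731% lower. Scaling by total counts moved all log2 folds by -0.11 before and 0.07 after culture, and turned 3 higher and 9 lower genes into 2 and 17 before culture and 8 and 9 into 14 and 7 after it. Background-subtracted scaling moved them by -0.21 and 0.03. Folds of the members ranged from 0.601 to 1.37 before and from 0.692 to 1.11 after culture.

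Before culture the interval lay above 1 for 2 members and below 1 for 2, against 17.6% and 8.54% of genes. Irf3 was higher at 1.37 (1.04 to 1.81), on 190 against 75 counts, and Tmem173 at 1.202 (1.02 to 1.42). With total counts these were 1.27 and 1.12 and both intervals held 1, while those of Tlr3 at 0.776 (0.613 to 0.986) and Dhx58 at 0.687 (0.482 to 0.984) then lay below 1. With background subtracted Tmem173 stood at 1.08 (0.910 to 1.29). Ifih1 stood at 0.678 (0.499 to 0.923), or 0.583 (0.227 to 1.498) with background subtracted, and Tlr4 at 0.601 (0.373 to 0.970) on counts that lie near the background. The intervals of Tlr2, Tlr3, Myd88, Ddx58, Dhx58 and Mavs held 1.

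After culture 2 of the 10 members, Tlr2 and Tlr4, had a fold above 1, beside 50.3% of the 12309 genes tested. The median log2 fold of the members was -0.149, beside 0.004 over all genes tested. The 3 RIG-I-like receptors were among those below 1, by less than 2-fold. Ddx58 stood at 0.854 (0.760 to 0.962), Ifih1 at 0.787 (0.661 to 0.939) and Dhx58 at 0.692 (0.546 to 0.881), with 877, 379 and 192 counts in the mutant against 422, 198 and 114 in the wild type library. These were the 3 members whose interval lay below 1, against 12.3% of genes. No interval of a member lay above 1, against 9.33% of genes. With background subtracted the folds were 0.868, 0.792 and 0.698 and their intervals still lay below 1, and with total counts they were 0.896, 0.825 and 0.726, where the interval of Ddx58, 0.797 to 1.01, held 1. The intervals of the other 7 members held 1, among them Mavs at 0.902 (0.631 to 1.31) and Irf3 at 0.845 (0.604 to 1.197).

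The ratio of the genotype fold after culture to that before it differed from 1 beyond counting error for 3 members. It was 0.617 (0.404 to 0.942) for Irf3, 0.748 (0.586 to 0.956) for Tmem173 and 1.83 (1.05 to 3.17) for Tlr4, whose counts before culture lie near the background. With total counts the ratio was 0.697 (0.457 to 1.06) for Irf3 and 0.845 (0.662 to 1.08) for Tmem173, so both intervals then held 1, as did that of Tmem173 with background subtracted. For the RIG-I-like receptors it was 0.877 (0.679 to 1.13) for Ddx58, 1.16 (0.825 to 1.63) for Ifih1 and 0.935 (0.619 to 1.41) for Dhx58. The ratio was computed for the members only. Without the share over all genes, the count of 3 cannot be read as a result about the members. These intervals hold no variation between pools, and the design leaves no degree of freedom for a test of this ratio.

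**Figure D4:**
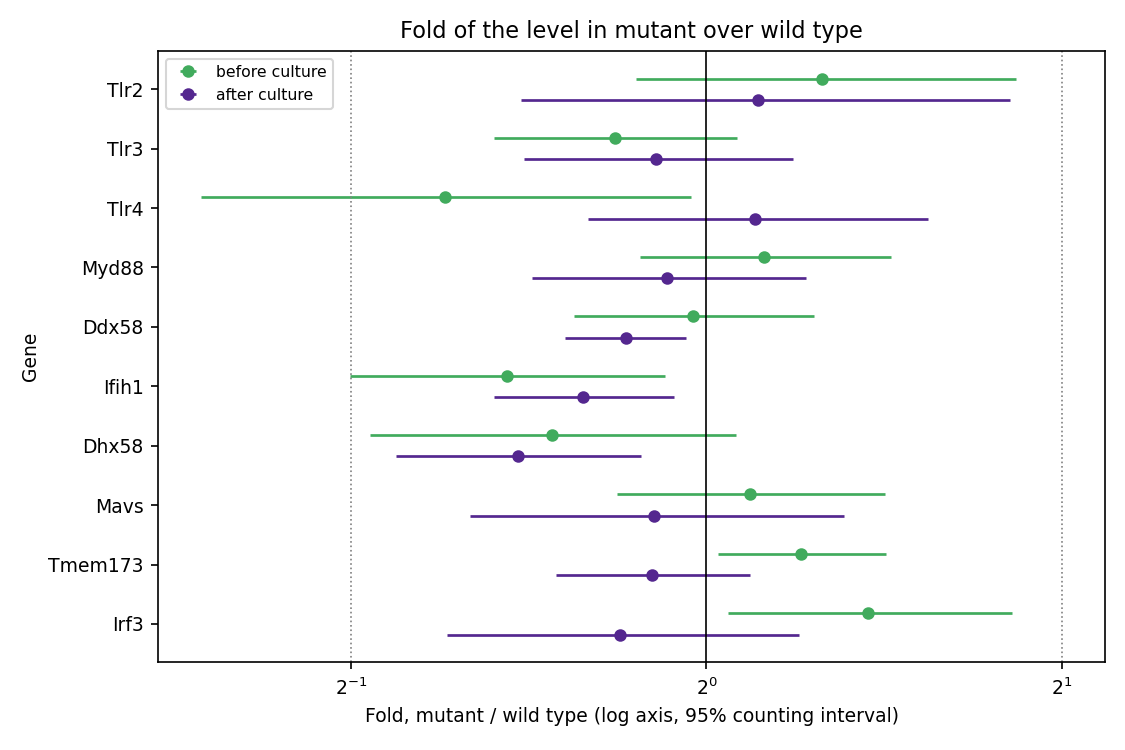
Fold of each member in mutant over wild type cells before and after culture, on a log axis with 95% counting intervals. No whole interval lies beyond the dotted 2-fold lines. After culture the whole intervals of Ddx58, Ifih1 and Dhx58 lie below 1, with folds of 0.854, 0.787 and 0.692.

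The surrounding pathway was read through 13 lists with 149 genes, all found in the libraries. In wild type cells 129 of these genes were tested for culture, with 50 called higher and 2 lower, and in mutant cells 142 were tested, with 42 higher and 3 lower. No gene of the lists was called between genotypes at either time. Of 18 interferon-induced genes, 16 were called higher in wild type and 15 in mutant cells, with median log2 folds of 3.29 and 2.85. Ifi44 stood at 37.4 (27.5 to 52.0) in wild type and 31.0 (24.1 to 40.5) in mutant cells, and Rsad2, the antiviral enzyme viperin, at 20.5 (15.2 to 28.2) and 14.6 (11.5 to 18.8). Ifi44 lay near background before culture, with 45 and 66 counts against 40.7 and 51.1 expected, so its fold is poorly bounded. Parp14 stood at 10.99 (9.19 to 13.2) and 12.7 (11.1 to 14.6). Of 12 interferon genes listed, 3 were tested in wild type and 7 in mutant cells and none was called. Ifng had 38, 65, 0 and 8 counts, against a background of 8.59, 10.8, 0.692 and 2.09 counts. Ifnb1 had 7, 22, 0 and 5 counts, against a background of 4.98, 6.25, 0.401 and 1.21 counts. Alpha interferon genes have near-identical copies, so their counts are uncertain.

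Interferon signalling genes and regulators of RIG-I were also called in part. Of 14 interferon factors and receptors 7 were called higher in each genotype, with the kinase gene Jak1 at 8.63 (8.11 to 9.18) and 7.10 (6.80 to 7.42). Of 11 regulators of RIG-I and MDA5 3 were called higher in each, namely Trim25, the ubiquitin ligase that activates RIG-I, at 7.85 (6.78 to 9.10) and 5.80 (5.24 to 6.43), Zc3hav1 and Ddx60. Among other RNA sensors 5 of 8 and 4 of 8 were called higher, with Eif2ak2, the RNA-activated kinase PKR, at 5.42 (4.55 to 6.47) and 5.09 (4.53 to 5.73) and the editing enzyme Adar at 5.46 (4.71 to 6.33) and 3.73 (3.38 to 4.13). Of the DNA sensors and STING regulators 4 of 11 and 4 of 12 were called higher. Ifi204 led them at 37.1 (26.5 to 53.6) and 69.9 (46.9 to 109), but it belongs to a cluster of related genes that may share reads, and it had 37 and 25 counts before culture against a background of 23.6 and 29.7. With background subtracted 2 and none of the DNA sensor genes were called. The folds that were left did not all shrink, and Mnda went from 5.68 to 62.2 in mutant cells, without a call. It had 16 counts there before culture against a background of 14.9, so this fold is poorly bounded. No counts of Ifi204 remained in mutant cells before culture.

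None of the other Toll-like receptors was called, with 2 of 9 tested in wild type and all 9 in mutant cells. Tlr9, the endosomal DNA sensor, had 14, 39, 2 and 9 counts and Tlr5, the flagellin receptor, 34, 55, 4 and 20, against a background of 31.8, 39.9, 2.56 and 7.75 counts for Tlr5. Ly96, which encodes the MD-2 partner of TLR4, was called higher in both genotypes at 15.9 (7.23 to 39.6) and 4.33 (2.78 to 6.82), on 8, 35, 35 and 55 counts against a background of 6.77, 8.51, 0.545 and 1.65. With background subtracted its fold was 72.4 without a call in wild type cells and 4.65 with a call in mutant cells. Of the 8 co-receptors and chaperones 3 and 1 were called higher, and none and 1 with background subtracted. Cd14 had 21, 49, 13 and 29 counts and was not called. Of 6 adaptors, Ticam1, which couples TLR3 and TLR4 to interferon, was called higher in wild type cells at 3.63 (2.25 to 5.84), and none was called in mutant cells. Of 15 genes of the IRAK, TRAF and TAK1 steps 2 and 1 were called higher, and of 7 genes of the TBK1 complex 2 and 1, with Tbk1 at 3.04 (2.51 to 3.67) and 2.85 (2.51 to 3.25). With background subtracted none of the first list was called in either genotype, and none and 1 of the TBK1 complex.

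Of 9 genes of cytosolic endotoxin sensing and inflammasomes 4 of 8 tested in wild type and 3 of 9 in mutant cells were called higher. Casp4, the cytosolic endotoxin sensor also known as caspase-11 in mice, stood at 4.66 (3.24 to 6.73) and 4.73 (3.64 to 6.19). Of the NF-kB genes 3 of 18 were called higher in each genotype, and 2 and 3 lower. The NF-kB subunit gene Rela was higher at 3.03 (2.52 to 3.65) and 2.73 (2.42 to 3.07), without a call in wild type cells once background was subtracted, and the NF-kB inhibitor gene Tnfaip3 was lower at 0.344 (0.230 to 0.497) and 0.270 (0.210 to 0.342). The shares called higher stand beside 8.17% and 5.19% of all genes called higher. The lists were chosen with earlier results of these data known, so this comparison is a description and tests nothing.

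**Figure D5:**
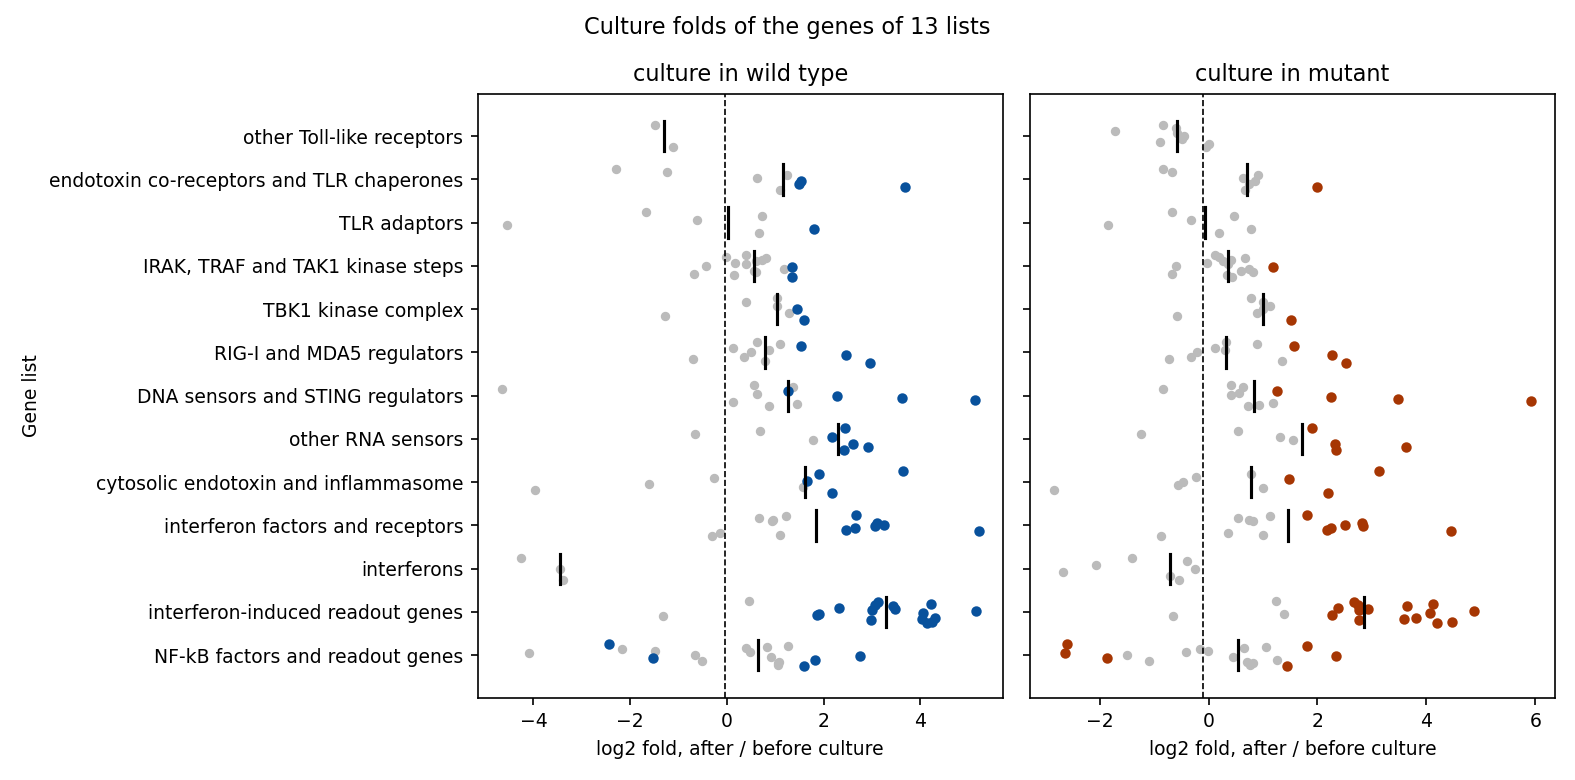
Log2 fold after over before culture for the tested genes of 13 pathway lists, in wild type (left) and mutant cells (right). Coloured points are called genes, black bars list medians and the dashed line the median of all genes, and interferon-induced readout genes lie highest, with medians of 3.29 and 2.85.

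Among 10496 genes with at least 200 counts in all, likeness to a member was taken as the largest absolute difference of centred log2 CPM over the 4 libraries. Nearest to Ddx58 were Mical2, at 0.0424, Slc40a1 and Eng, both at 0.102. Nearest to Tlr4 were Nqo2 at 0.0923, Gda at 0.249 and Clec9a at 0.256. Nearest to Tlr3 were Snx24 at 0.0543, Klhl24 at 0.0603 and Ttc14 at 0.0718, and nearest to Irf3 were Ech1 at 0.0221, Zfp319 at 0.0302 and Agpat1 at 0.0328. With 4 libraries many genes lie close to any pattern.

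In mm10 with GENCODE vM21, 9 of the genes lie as follows, and the position of Tmem173 is not given here: Tlr2 at chr3:83836272-83841767 (minus strand), Tlr3 at chr8:45395665-45411080 (minus strand), Tlr4 at chr4:66827584-66930284 (plus strand), Myd88 at chr9:119335934-119341411 (minus strand), Ddx58 at chr4:40203773-40239828 (minus strand), Ifih1 at chr2:62595798-62646255 (minus strand), Dhx58 at chr11:100694884-100704271 (minus strand), Mavs at chr2:131234063-131248025 (plus strand) and Irf3 at chr7:44997648-45002848 (plus strand). Exons of other annotated genes overlap the exons of 4 members on the opposite strand: 381 bases of Tlr3, 290 of Myd88, 141 of Dhx58 and 88 of Irf3. The strand setting of the counting is not given in the sources used here, so reads of these stretches cannot be assigned with certainty.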

How the data were processed

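RNA was measured in 4 libraries, 1 per group, from stranded paired-end sequencing. As deposited, the values were raw counts for each gene symbol, made with STAR and HTSeq 0.11.2 on mm10 per the submitters' processing notes; the count tables are named as deduplicated with sambamba, and neither annotation nor strand setting is given in the sources used here. The 5 HTSeq summary classes stayed out of all totals. The additive fit used filterByExpr. Counts were scaled by TMM (edgeR 4.0.16, R 4.3.3), with exact Poisson or Clopper-Pearson intervals at 95%, which cover counting error only, since no molecular identifiers are stated and amplified pairs need not be separate molecules. Exon lengths came from GENCODE vM21 on GRCm38 for 98.0% of symbols. List medians used a prior count of 2, and a gene without counts in 1 library took 3 counts there. Background was the pooled rate of receptor genes per kb of coding sequence, extended over exons. Intervals after its subtraction used the delta method on the log scale, with the rate taken as fixed. DESeq2 1.42.0, median-of-ratios and total-count scaling, no count minimum and a 1.5-fold call were alternatives. Procedures were tested on simulated data. All members are named; from each list up to 4 called genes with the most counts, otherwise 2, were eligible for naming; Ifnb1, Tlr9 and Cd14 were chosen after their values were seen. Members and lists were chosen with earlier results of these data known. One gene of the interferon factor list is not reported here.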

Additional observations from a re-analysis of the deposited data

How the results depend on the processing

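Libraries before and after culture are portions of one sort per genotype, so the fit with genotype as a term is the paired one for culture, and 10 members passed with and without that term. Between genotypes no pairing exists, as each group holds 1 library without a replicate number; leaving out a library ends every comparison it is in. With background subtracted, 3 members were called for culture in wild type cells in place of 6 (Ddx58, Ifih1 and Dhx58), and 4 in mutant cells (with Tlr3); taken over the longest transcript, an alternative chosen after seeing the data, 4 and 5 were called, with Tlr4 added in each. Total counts gave 4 in each genotype, median-of-ratios scaling 7 and 6, no count minimum 6 and 6, and a 1.5-fold call 8 and 7. No setting called a member between genotypes. In the fit with genotype as a term, 10 members passed with edgeR, also without the genotype term, with median-of-ratios scaling and without a count minimum, and 7 passed with DESeq2 and with background subtracted, where Tlr2, Mavs and Irf3 did not. Over all genes, those called higher and lower for culture in that fit numbered 4361 and 3440 with edgeR, 2953 and 856 with DESeq2 and 2531 and 1629 with background subtracted. For culture in wild type cells, 1401 higher and 745 lower genes became 927 and 448 with background subtracted (828 and 554 over the longest transcript) and 2862 and 1759 with a 1.5-fold call; in mutant cells 976 and 651 became 2257 and 1681 with a 1.5-fold call. Between genotypes before culture, 3 higher and 9 lower genes became 2 and 17 with total counts, 3 and 18 without a count minimum and 49 and 70 with a 1.5-fold call; after culture, 8 and 9 became 14 and 7 with total counts, 8 and 13 without a count minimum, 2 and 12 with background subtracted (2 and 11 over the longest transcript) and 87 and 38 with a 1.5-fold call. Of 40 member folds, 16 left their interval with total counts, 4 of 37 with background subtracted and none with median-of-ratios scaling. All folds that left were culture folds and none was a genotype fold. With total counts the culture folds of every member but Tlr2 and Tlr4 left their interval in both genotypes. No called fold changed direction. Depth limits Tlr2 and Tlr4, at 26 and 36 counts in their lowest library. Taking the longest transcript moved 25 of 40 levels per kb out of their interval. The ratio of genotype folds, recomputed after seeing the data, stayed inside its interval for every member it could be formed for, but with total counts 1 member (Tlr4) in place of 3 had an interval without 1.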
